A study of Mus musculus with 24 samples.

Results

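Dnmt1, Dnmt3a, Dnmt3b, Dnmt3l and Uhrf1, the genes that encode the core machinery writing and copying cytosine methylation in the mouse, were followed as RNA in mouse embryonic stem cells (mESC) lacking Tet enzymes. The 5 genes were taken by symbol, 1 line each, from the 22926 symbols of the count tables. The rule that picks the lines uses no measured value, but the members and the gene lists were chosen with earlier results of these data known. The 24 poly(A) RNA-seq libraries came from undifferentiated mESC (D0) and from cells of the same genotypes kept without the cytokine LIF for 6 days (D6). At each day there were 3 wild-type (WT), 3 Tet1-/-, 2 Tet2-/-, 2 Tet1-/-;Tet2-/- (DKO) and 2 Tet1-/-;Tet2-/-;Tet3-/- (TKO) libraries. All genotypes descend from 1 parental clone of a 129/SvJ-derived line that carries a Pou5f1:IRES:eGFP reporter. The knockouts were made by CRISPR/Cas9 as small insertions and deletions, so the transcript of a mutated gene need not be lost. Cells were grown on gelatin without feeders. Within a day every library is a separate clone of its genotype. WT clones O4.1, O4.2 and O4.13, Tet1-/- clones 2.1 and 2.4 and the 2 clones each of Tet2-/-, DKO and TKO were sequenced at both days, whereas Tet1-/- was represented by clone 2.3 at D0 alone and by clone 2.2 at D6 alone. The Tet2-/-, DKO and TKO clones are called clone 1 and clone 2 after their replicate numbers at D0. The 2 days were deposited as separate tables, and any difference in handling between them cannot be told apart from the day.

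Methylation of CG pairs is laid down and kept up by different proteins. Dnmt3a and Dnmt3b are the de novo methyltransferases, Dnmt3l is a cofactor without catalytic activity that binds and stimulates them, Dnmt1 copies existing methylation onto the newly made strand at replication, and Uhrf1 recognises hemimethylated CG pairs and recruits Dnmt1 to them. The Tet enzymes work in the opposite direction by oxidising 5-methylcytosine. In the mouse embryo Dnmt3b and Dnmt3a accompany the gain of methylation as the epiblast forms, and Dnmt3l is expressed in naive stem cells and the germ line.

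In mm9 coordinates with the GENCODE annotation, Dnmt1 lies at chr9:20711650-20757317 on the minus strand and has 39 exon blocks. Uhrf1 lies at chr17:56442744-56462909, Dnmt3a at chr12:3806007-3914443, Dnmt3b at chr2:153475186-153513466 and Dnmt3l at chr10:77504692-77526367, all on the plus strand. Counts are those of the first line of each symbol, and the exons that a line covers are not given in the tables. Dnmt3l overlaps Aire on the other strand, and the strand setting of the counting is not stated, so reads of the 2 genes could be mixed. The same limit holds for Dnmt3a, which overlaps Gm10485 and a further gene model on the other strand, and for Dnmt3b, which overlaps 7530422B04Rik. Aire itself had between 5 and 135 counts per library, at most 2.23% of the Dnmt3l count.

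The start regions of the members differed in CG content. The 250 bases before the start are shown for Dnmt3b and Dnmt3l, the 2 members with the largest changes between days in WT, from RefSeq on GRCm38.p6 and with CG pairs in capitals. The Dnmt3b stretch (chr2:153649199-153649448, plus strand) holds 21 CG pairs, and that of the first of 3 Dnmt3l starts (chr10:78042037-78042286, plus strand) holds 5. Across 32851 start windows the median was 6 CG pairs in the upstream 250 bases, with quartiles of 2 and 16.
Dnmt3b: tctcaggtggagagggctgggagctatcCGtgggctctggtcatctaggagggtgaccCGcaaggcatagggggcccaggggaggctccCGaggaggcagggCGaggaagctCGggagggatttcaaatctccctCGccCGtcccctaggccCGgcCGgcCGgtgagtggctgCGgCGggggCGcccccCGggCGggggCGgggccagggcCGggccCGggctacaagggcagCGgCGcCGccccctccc
Dnmt3l: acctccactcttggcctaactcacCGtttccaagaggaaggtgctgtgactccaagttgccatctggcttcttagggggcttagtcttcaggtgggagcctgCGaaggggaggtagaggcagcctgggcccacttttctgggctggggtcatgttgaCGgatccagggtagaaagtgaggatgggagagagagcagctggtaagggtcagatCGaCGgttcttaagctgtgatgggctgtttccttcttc

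Dnmt1 and Uhrf1, the pair that moved together across libraries, each held, in 1 of 3 start windows of Dnmt1 and 1 of 2 of Uhrf1, a match to TTTCGCGC, one of 2 motifs searched on both strands for E2F factors, which drive S phase genes. The other motif was TTTGGCGC, which the same Dnmt1 window held downstream of its start. The remaining windows of both genes held neither. The 30-base stretches below carry the match in capitals, on chr17:56304117-56304146 (plus strand, the second Uhrf1 start, 185 bases before it) and chr9:20952824-20952853 (minus strand, the third Dnmt1 start, 219 bases before it, as the reverse complement of the motif). A match to either motif occurred in 267 of 32851 windows of 300 bases (0.813%). None of the windows of Dnmt3a, Dnmt3b or Dnmt3l held these letters. A match describes letters in a window and does not establish a site.
Uhrf1: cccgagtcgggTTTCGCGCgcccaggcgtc
Dnmt1: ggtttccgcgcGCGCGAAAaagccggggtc

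Library totals were between 21729346 and 37290208 counts at D0 and between 18400463 and 34219640 at D6. The lowest count of a member in any library was 920, for Dnmt3l, far above the floor of 3 counts. Levels are given as CPM, which are counts brought to the same library size across the 24 libraries by the trimmed mean of M values (TMM). The pluripotency markers, 13 of 13 listed, summed to between 7034 and 8523 CPM in the D0 libraries, labelled as mESC, and to between 1737 and 3958 at D6. Tet2 in Tet2-/- at D0 was 20.9 and 23.2 CPM against 87.9 to 94.0 in WT. At D6 the same clones had 15.9 and 16.6 CPM against 12.3 to 15.97 in WT (0.23 log2, edgeR adjusted p = 0.506), so that the Tet2 level did not check the label there. Tet1 in DKO at D0 was 231 and 373 CPM, within the WT range. Tet3 in TKO at D0 was 4.43 and 2.84 CPM against 5.05 to 7.94 in WT. Tet1 in Tet1-/- at D0 was 93.4, 126 and 358 CPM against 220.4 to 431 in WT, so that clone 2.4 overlapped WT. The 2 TKO clones stood apart from each other, with Tet1 at 568 CPM in clone 1 and 41.7 in clone 2 at D0. Values without clone 2 stand beside results it changed or in the closing section on the processing. In bulk RNA, fewer cells of a type and less RNA per cell cannot be told apart.

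**Figure D1:**
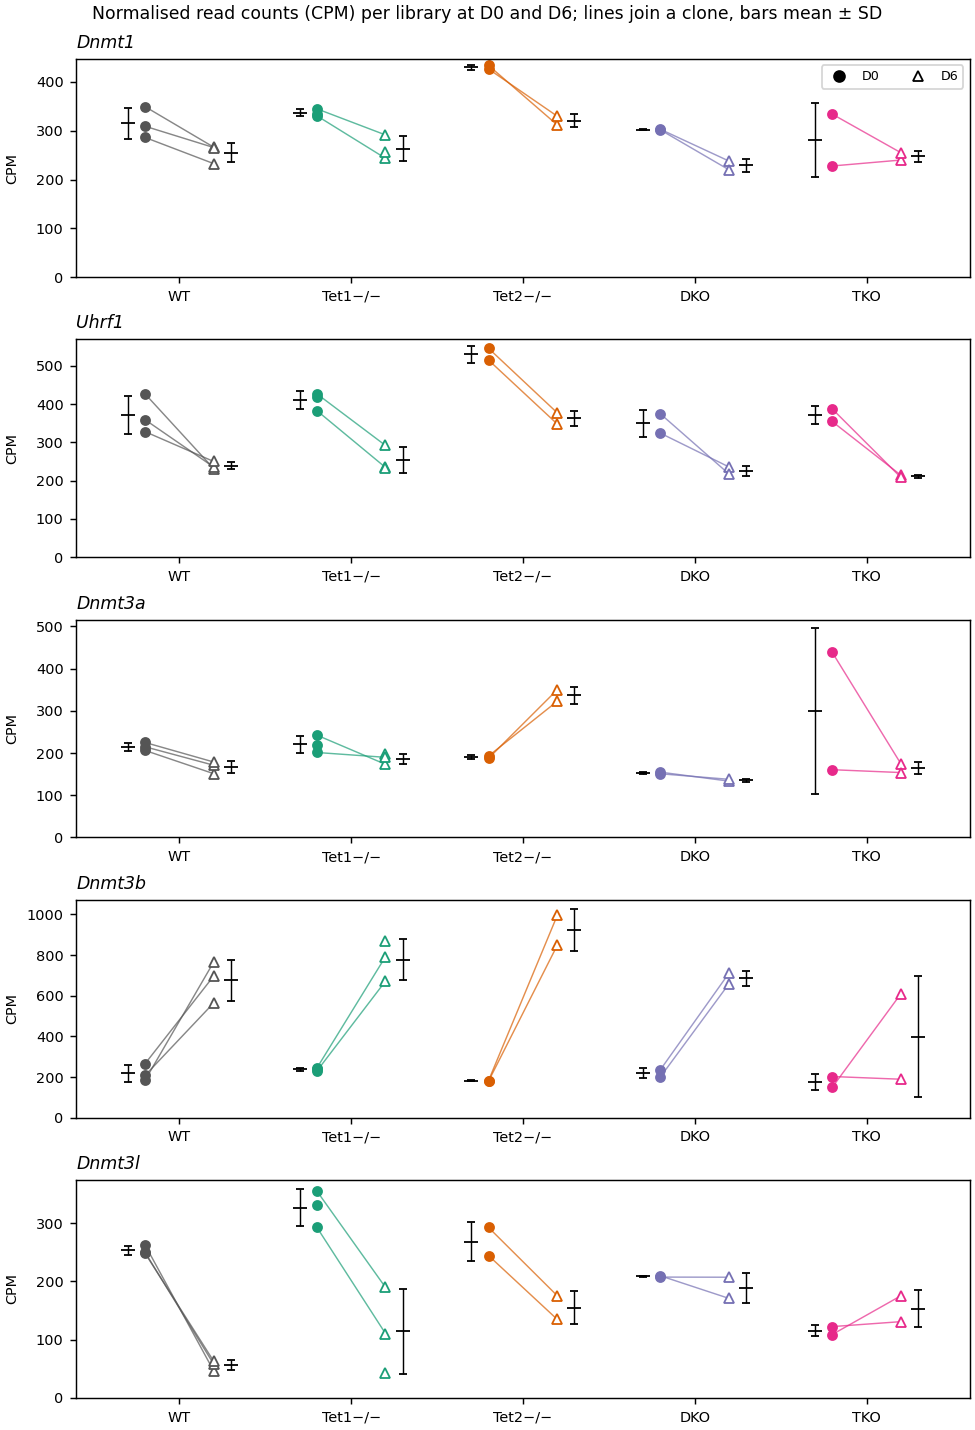
Level of each member (CPM on a linear axis from 0) in each of the 24 libraries at D0 and D6, by genotype, with circles for D0, triangles for D6, lines joining a clone and black bars for the mean ± SD. Dnmt3b was higher at D6 than at D0 except in TKO clone 2 (203 and 189 CPM), and Dnmt3l at D6 was lowest in WT and Tet1-/- clone 2.2.

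The first question was how the methylation machinery changed as the cells left the undifferentiated state. Of 25 comparisons of a member between D6 and D0 within a genotype, 18 passed the threshold (edgeR adjusted p under 0.05 over all genes), 6 with a higher and 12 with a lower level at D6. The day changed much of the transcriptome. Of all genes 66.3% passed in WT (33.5% higher, 32.8% lower), while Tet1-/- had 63.4% (32.0% and 31.3%), Tet2-/- 40.0% (20.4% and 19.6%), DKO 55.6% (27.6% and 28.0%) and TKO 50.5% (25.2% in each direction). All comparisons with WT in the text share the same WT libraries.

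Uhrf1, the factor that brings Dnmt1 to replicated DNA, fell in every genotype. WT clones O4.1, O4.2 and O4.13 gave 427, 328 and 359 CPM at D0 and 231, 249.9 and 235 at D6. The days did not overlap, and the mean went from 371 ± 50.5 (SD, n = 3) to 239 ± 9.82 CPM. The fall was −0.64 ± 0.10 (log2, SE) in WT with an edgeR adjusted p of 2.92e-05. It measured −0.81 in TKO, −0.69 in Tet1-/-, −0.63 in DKO and −0.55 in Tet2-/-, with edgeR adjusted p between 1.32e-05 and 0.00211. Each of the 11 clones sequenced at both days had less Uhrf1 at D6, with log2 ratios from −0.89 to −0.39. None of these 5 calls was lost on leaving out any single library.

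Dnmt1, the maintenance methyltransferase, fell less. WT clones O4.1, O4.2 and O4.13 gave 349.5, 286 and 309 CPM at D0 and 266, 233 and 266 at D6, so that the days did not overlap. The log2 change was −0.31 ± 0.11 (SE, edgeR adjusted p = 0.0226) in WT, −0.35 (0.0103) in Tet1-/-, −0.42 (0.0202) in Tet2-/- and −0.40 (0.0187) in DKO, the number in parentheses being the adjusted p. TKO gave −0.18 (edgeR adjusted p = 0.278), with 334 and 228 CPM at D0 and 255 and 239.9 at D6 in clones 1 and 2. Without clone 2 at D0 the TKO change was −0.44 (edgeR adjusted p = 0.00913), without clone 2 at either day −0.36 (0.0596) and without clone 1 at D0 0.12 (0.438), in a range of 0.00913 to 0.966 over all alternatives. Scaling by library totals in place of TMM moved the median of all genes between days by 0.14 to 0.21 log2, and on that scale Dnmt1 fell by less, −0.16 in WT (edgeR adjusted p = 0.238) and at most −0.28 in Tet2-/-, with no call in any genotype. The WT call was also lost without clone O4.1 at D0 (edgeR adjusted p = 0.117) or without clone O4.2 at D6 (0.0911), over a range of 0.00426 to 0.238 across all alternatives. The Tet1-/- call was lost without clone 2.1 (edgeR adjusted p = 0.0893) or 2.2 (0.0702) at D6, the DKO call without clone 1 (0.0846) or clone 2 (0.0818) at D0 or clone 2 at D6 (0.121), and the Tet2-/- call without any 1 of its 4 libraries (0.0544 to 0.126).

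The ratio of Uhrf1 to Dnmt1 counts, taken within a library, ranged from 1.07 to 1.56 at D0 (median 1.20) and from 0.817 to 1.14 at D6 (median 0.975). The 2 ranges overlapped. Across the 24 libraries log2(CPM + 1) of the 2 genes had a Pearson r of 0.889, and 0.833 after each day's mean was taken off. Most clones contribute a library at each day, so these 24 points are not independent. The other pairs of members lay between −0.64 and 0.64, and between −0.01 and 0.44 with the day's mean taken off.

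S phase genes also fell between the days. Of 22 listed genes of DNA replication and S phase, 18 fell and 1 rose in WT, where 32.8% of all genes fell and 33.5% rose. The list median was −0.63 log2 against 0.01 over all genes. Among them Fen1, a nuclease of lagging-strand synthesis, fell by 1.14 log2 ± 0.11 (SE), Mcm3 by 0.92 ± 0.09 and Mcm5 by 1.43 ± 0.14, both subunits of the replicative helicase, with edgeR adjusted p of 7.81e-08, 8.50e-08 and 8.88e-08. In Tet2-/- 11 of the 22 fell, in DKO 18, in Tet1-/- 17 and in TKO 13. Of all genes 19.6%, 28.0%, 31.3% and 25.2% fell in these genotypes. The list summed to between 8507 and 9421 CPM per library at D0 and between 5501 and 8228 at D6. The mean of these sums went from 8984 to 6220 CPM in WT and from 8673 to 7553 in TKO. Uhrf1 had its largest fall in TKO (−0.81 log2). The part of the list in the change of Dnmt1 and Uhrf1 was not tested.

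Dnmt3b, a de novo methyltransferase and a marker of the epiblast after implantation, rose in every genotype. WT clones O4.1, O4.2 and O4.13 gave 184, 265 and 208 CPM at D0 and 766, 697 and 565 at D6, a mean of 219 ± 41.8 (SD, n = 3) against 676 ± 102. The log2 change was 1.63 ± 0.27 (SE) in WT with an edgeR adjusted p of 3.12e-05. Tet2-/- had 2.34, Tet1-/- 1.71, DKO 1.65 and TKO 1.19, with adjusted p of at most 0.00509. In Tet2-/- the level rose from 183 and 180.4 to 996 and 849 CPM in clones 1 and 2, and in DKO from 201 and 236 to 659.8 and 712 CPM in clones 1 and 2. The groups of the 2 days did not overlap in WT, Tet1-/-, Tet2-/- or DKO.

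The TKO clones differed in this rise. For Dnmt3b, clone 1 went from 149 to 609.7 CPM, whereas clone 2 had 203 CPM at D0 and 189 at D6. The TKO call rested on clone 1: without it at D6 the log2 change was 0.10 (edgeR adjusted p = 0.722), and without it at D0 0.99 (0.0554), within a range over all alternatives of 5.06e-06 to 0.722. When TKO alone was fitted the change was 1.22 with an adjusted p of 0.138. Without clone 2 at either day it was 2.06 ± 0.24 (SE, edgeR adjusted p = 1.15e-05). Formative and primed epiblast markers, 4 of 7 of which rose in TKO (5 without clone 2), summed to between 210.3 and 258 CPM at D0 and to between 403 and 614 at D6 in TKO, against 577 to 917 at D6 in WT, where 6 of 7 rose. Of all genes 25.2% rose in TKO and 33.5% in WT, and the TKO calls in either direction went from 7896 to 5199 without clone 2. Their part in the difference was not tested.

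Dnmt3a, the other de novo methyltransferase, moved up in the Tet2-/- clones and down in the other clones with both days. WT clones O4.1, O4.2 and O4.13 gave 206, 225 and 215 CPM at D0 and 151, 179 and 171 at D6. These days did not overlap, and the change of −0.37 ± 0.21 log2 (SE) missed the threshold with an edgeR adjusted p of 0.126. It passed when WT alone was fitted (−0.36, edgeR adjusted p = 0.00899) and without TKO clone 2 in the fit (−0.36, 0.000795), in a range of 0.000795 to 0.347 over all alternatives. In Tet2-/- clones 1 and 2 the level went from 193 and 188 to 323 and 350.2 CPM, an increase of 0.82 ± 0.26 log2 (edgeR adjusted p = 0.0156). That call was lost without clone 1 (edgeR adjusted p = 0.0605) or clone 2 (0.0871) at D0 or without clone 2 at D6 (0.0749). Tet1-/- measured −0.24 (edgeR adjusted p = 0.316, and −0.22 with 0.0209 without TKO clone 2) and DKO −0.17 (0.582).

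In TKO the Dnmt3a change depended on 1 library. Clones 1 and 2 gave 161 and 439 CPM at D0 and 154 and 175 at D6, and clone 2 at D0 was the highest Dnmt3a level of the 24 libraries. The TKO change of −0.87 ± 0.26 log2 passed (edgeR adjusted p = 0.0086), but without clone 2 at D0 it was 0.03 (0.883) and without this clone at either day −0.04 (0.865). It was also lost without clone 1 at D6 (edgeR adjusted p = 0.0584) and when TKO alone was fitted (0.205).

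Dnmt3l, the cofactor of the de novo enzymes, had the largest fall among the members in WT. Clones O4.1, O4.2 and O4.13 gave 263, 249 and 250.2 CPM at D0 and 46.4, 63.0 and 58.0 at D6, a mean of 254 ± 7.82 (SD, n = 3) against 55.8 ± 8.54. The change was −2.18 ± 0.31 log2 (SE) with an edgeR adjusted p of 7.41e-06, a 4.54-fold decrease. Tet1-/- gave −1.51 ± 0.31 (edgeR adjusted p = 0.000304), with 293, 332 and 355 CPM in clones 2.1, 2.3 and 2.4 at D0 and 111, 43.3 and 189.8 in clones 2.1, 2.2 and 2.4 at D6. Both calls held on leaving out any single library.

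The other genotypes did not show a fall that passed. Tet2-/- clones 1 and 2 went from 244 and 293 to 135 and 175 CPM, −0.79 ± 0.37 log2 (edgeR adjusted p = 0.095). Fitted with the clone as a block, because the same clones were sampled at both days, this was −0.80 with an adjusted p of 0.00314, in a range over all alternatives of 1.29e-05 to 0.370. DKO clones 1 and 2 had 208 and 209.8 CPM at D0 and 207 and 171 at D6, −0.14 ± 0.37 log2 with a 95% interval of −0.91 to 0.63. TKO clones 1 and 2 had 109 and 122 CPM at D0 and 175 and 131 at D6, 0.41 ± 0.37 log2 with an interval of −0.37 to 1.18. Both DKO clones were thus lower at D6 than either was at D0, one of them by less than 1 CPM, and both TKO clones were higher at D6 than either was at D0.

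**Figure D2:**
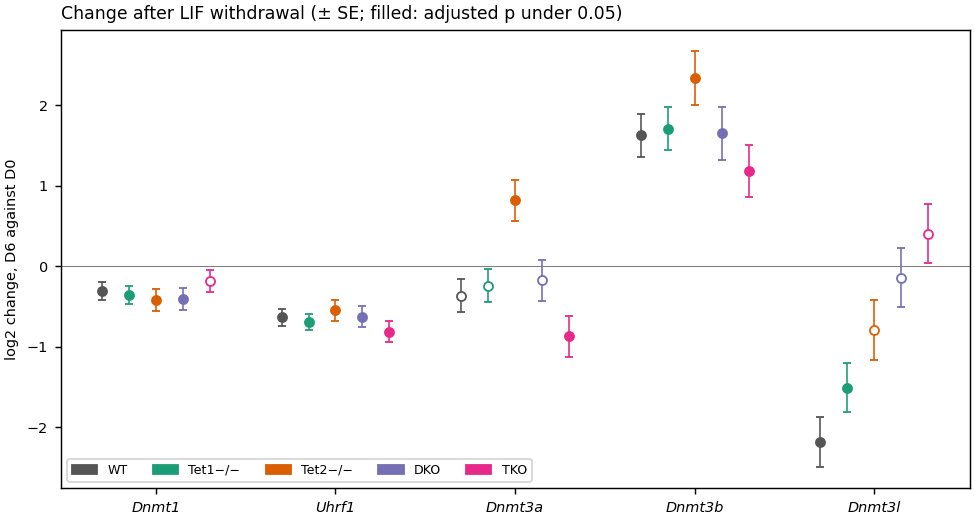
Log2 change from D0 to D6 of each member in each genotype (points, fitted by edgeR over all genes) with the standard error (bars), filled where the adjusted p was under 0.05 and hollow elsewhere. Uhrf1 is below 0 and Dnmt3b above 0 in all 5 genotypes, and Dnmt3l goes from −2.18 in WT to 0.41 in TKO.

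The ratio of Dnmt3l to Dnmt3b counts within a library went from 0.604 to 1.62 at D0 (median 1.24) to between 0.0498 and 0.692 at D6 (median 0.186), with some overlap of the 2 ranges. That of Dnmt3a to Dnmt3b went from a median of 1.04 to 0.254.

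The next question was whether the loss of Tet enzymes changed the members before differentiation. At D0, 2 of 20 comparisons of a member with WT passed. The share of all genes that passed was 9.80% for Tet2-/- and 8.61% for TKO, against 0.0138% for Tet1-/- and 0.0484% for DKO.

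Uhrf1 at D0 was higher in Tet2-/- than in WT. The 2 clones had 515 and 545 CPM against 328 to 427 in WT, without overlap, a difference of 0.49 ± 0.11 log2 (SE, edgeR adjusted p = 0.0234). The call was lost without Tet2-/- clone 1 (edgeR adjusted p = 0.126) or clone 2 (0.174) and on leaving out O4.2 (0.0856) or O4.13 (0.0836) of WT. Dnmt1 in the same clones was 434 and 427 CPM against 286 to 349.5, also without overlap, 0.43 ± 0.13 log2. This missed the threshold with an edgeR adjusted p of 0.061 and passed with DESeq2 (0.0317), without a filter on low counts (0.0419) and without TKO clone 2 in the fit (0.00222), in a range of 0.00222 to 0.266 over all alternatives. Of the 22 S phase genes 1, Cdt1, a replication licensing factor, was higher in Tet2-/- at D0 (0.53 ± 0.13 log2, edgeR adjusted p = 0.0279), with list sums of 9092 and 9421 CPM against 8679 to 9209 in WT.

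Dnmt3l at D0 was lower in TKO than in WT, at 109 and 122 CPM against 249 to 263. The difference of −1.14 ± 0.11 log2, a 2.2-fold decrease, passed with an edgeR adjusted p of 0.000355 and held on leaving out any 1 of the 5 libraries. It lost the call when the 2 genotypes were fitted alone (edgeR adjusted p = 0.0663) or when both days were fitted together (0.0669). The other knockouts at D0 measured 0.34 ± 0.09 in Tet1-/- (edgeR adjusted p = 0.168, and 0.0342 without TKO clone 2), 0.06 ± 0.10 in Tet2-/- and −0.30 ± 0.11 in DKO (0.233). Among markers of the cell state, Nanog was lower in TKO at D0 (−0.41 log2, edgeR adjusted p = 0.0209), while naive and core pluripotency markers as a list had 1 of 13 higher and 2 lower. Their part in the Dnmt3l difference was not tested.

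Dnmt3a at D0 was lower in DKO, with 155 and 151 CPM against 206 to 225 in WT and no overlap, but −0.51 ± 0.28 log2 missed the threshold (edgeR adjusted p = 0.434). The spread of the fit included the 2 TKO clones, which stood apart at D0 (161 and 439 CPM). Without clone 2 the same difference had a standard error of 0.09, and its value without clone 1 is not given. The 2 genotypes fitted alone gave −0.51 with an edgeR adjusted p of 0.0159. TKO itself was 0.47 ± 0.27 log2 above WT in Dnmt3a, and −0.42 ± 0.11 without clone 2 (edgeR adjusted p = 0.0171). Dnmt3b in TKO was −0.32 ± 0.16 log2 (edgeR adjusted p = 0.215), and −0.56 ± 0.16 without that clone (0.0268).

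At D6, 4 of 20 comparisons with WT passed, all in Tet2-/- and all higher. Among all genes 28.5% passed in Tet2-/-, 12.9% with a higher level, and in this fit of the D6 libraries no gene passed in Tet1-/-, DKO or TKO with edgeR. The edgeR fit over both days called 144 genes in DKO and 1312 in TKO, and without the filter on low counts 163 passed in TKO. At an unadjusted p under 0.05 there were 1949, 2251 and 3629 genes in those 3 genotypes, and DESeq2 called 134, 359 and 1490.

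Dnmt3a in Tet2-/- at D6 was about 2-fold above WT. Clones 1 and 2 gave 323 and 350.2 CPM against 151 to 179 in WT, without overlap. The difference was 0.99 ± 0.10 log2 (SE, edgeR adjusted p = 0.00264), and without clone 2 it was 0.94 (0.0599). Dnmt3l in the same clones was 135 and 175 CPM against 46.4 to 63.0, also without overlap, 1.45 ± 0.43 log2 or 2.74-fold (edgeR adjusted p = 0.0296). The Dnmt3l call was lost without Tet2-/- clone 1 (edgeR adjusted p = 0.0889) or clone 2 (0.169) and without WT clone O4.1 (0.0821) or O4.13 (0.0754).

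The maintenance genes at D6 were also higher in Tet2-/-. Uhrf1 was 348 and 377 CPM against 231 to 249.9, a difference of 0.58 ± 0.11 log2 (edgeR adjusted p = 0.00656), lost without clone 1 (0.0509) or clone 2 (0.0796). Dnmt1 was 312 and 329.8 CPM against 233 to 266, 0.31 ± 0.10 log2 (edgeR adjusted p = 0.0428). That last call was lost with library totals (edgeR adjusted p = 0.0875) and on leaving out any 1 of its 5 libraries (0.0580 to 0.227). Dnmt3b was 996 and 849 CPM against 565 to 766, without overlap, but 0.43 ± 0.35 log2 missed the threshold (edgeR adjusted p = 0.373).

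Markers of other cell types also differed between Tet2-/- and WT at D6, where 28.5% of all genes passed and 12.9% were higher. Of 8 listed mesoderm genes 7 were lower than in WT, with list sums of 11.6 and 22.2 CPM against 199 to 742, and of 8 trophectoderm genes 7 were lower, with sums of 189 and 216 CPM against 730.5 to 1648. Of 8 listed endoderm genes 6 were tested and 5 were lower, with sums of 21.0 and 25.3 CPM against 77.0 to 287. Pluripotency markers summed to 3706 and 3958 CPM against 1737 to 3121, with 3 of 13 higher, Pou5f1 among them (1.18 ± 0.27 log2, edgeR adjusted p = 0.0128), and 11 of 22 S phase genes were higher. Of 6 listed neuroectoderm genes 5 were tested and 3 were higher, with sums of 195 and 205 CPM against 96.6 to 129. No gene of these lists was at 0 in every library. The part of these cell states in the levels of Dnmt1, Uhrf1, Dnmt3a and Dnmt3l was not tested.

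Dnmt3l was also above WT at D6 in the remaining knockouts without passing. DKO clones gave 207 and 171 CPM and TKO clones 175 and 131 CPM, none of them overlapping WT, with differences of 1.76 ± 0.43 log2 (edgeR adjusted p = 0.189) and 1.47 ± 0.43 (0.0911). DESeq2 gave 0.00655 and 0.0126, and the edgeR fit over both days 0.0252 and 0.0165, in ranges over all alternatives of 0.00655 to 0.783 for DKO and 0.0126 to 0.244 for TKO. Tet1-/- clones spread from 43.3 to 189.8 CPM across the WT range, 1.03 ± 0.39 log2 (edgeR adjusted p = 0.361).

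**Figure D3:**
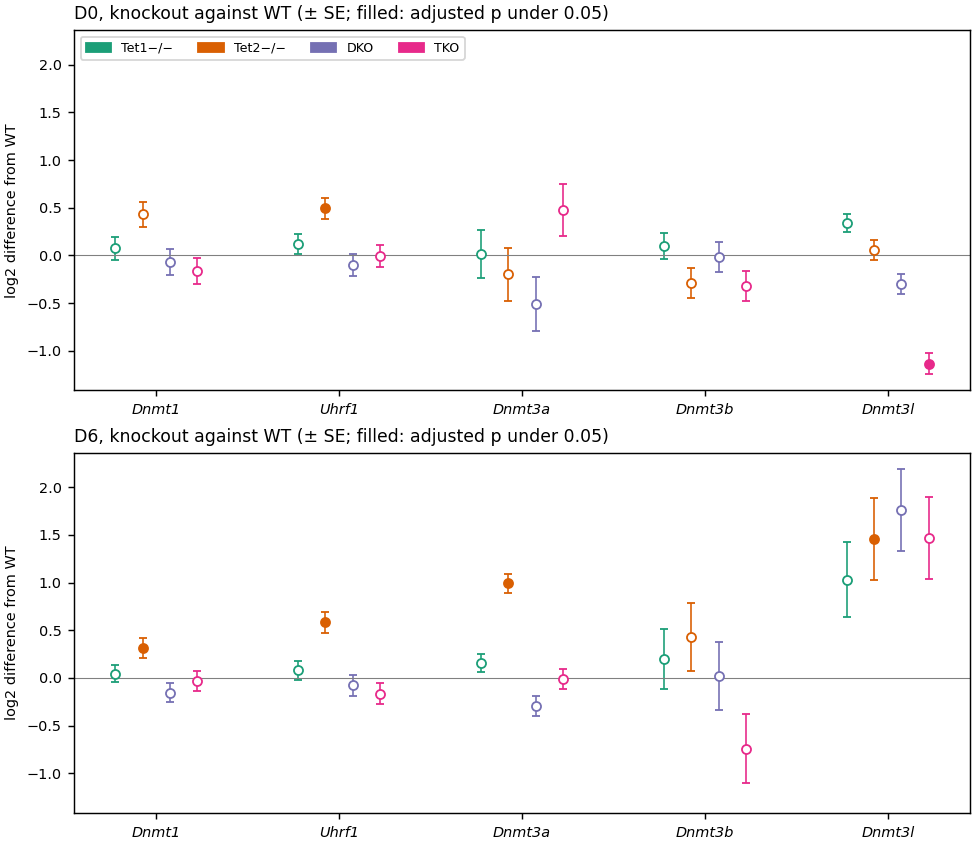
Log2 difference from WT of each member in each knockout at D0 and at D6 (points, fitted by edgeR over all genes) with the standard error (bars), filled where the adjusted p was under 0.05. At D0 Uhrf1 in Tet2-/- (0.49) and Dnmt3l in TKO (−1.14) are filled, and at D6 Dnmt1, Dnmt3a, Dnmt3l and Uhrf1 in Tet2-/-.

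Whether a knockout changed the response to LIF withdrawal was tested as the difference between its day effect and that of WT. Of 20 such differences 2 passed. Among all genes 16% passed in Tet2-/- and 5.97% in TKO, and none in Tet1-/- or DKO with edgeR without a block (3 in DKO with the clone as a block), where 1200 and 1255 genes had an unadjusted p under 0.05 and DESeq2 called 36 and 31.

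The day effect on Dnmt3l in TKO was 2.59 ± 0.48 log2 (SE) above that in WT, a 6.02-fold difference (edgeR adjusted p = 0.00671). WT fell from 249 to 263 CPM down to 46.4 to 63.0, while TKO went from 109 and 122 to 175 and 131. This call held on leaving out any 1 of 10 libraries, with values from 2.36 to 2.80. The same difference was 2.04 ± 0.48 in DKO (edgeR adjusted p = 0.372, and 0.0172 with the clone as a block, in a range of 0.0172 to 0.929 over all alternatives) and 1.39 ± 0.48 in Tet2-/- (0.0529, 0.0031 with the clone as a block and 0.0463 without TKO clone 2, in a range of 0.0031 to 0.186). Tet1-/- measured 0.67 ± 0.43 (edgeR adjusted p = 0.745), from 0.099 without clone 2.4 at D6 to 1.09 without clone 2.2 at D6.

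The day effect on Dnmt3a in Tet2-/- was 1.19 ± 0.33 log2 above that in WT (edgeR adjusted p = 0.0222). This call was lost without Tet2-/- clone 1 (edgeR adjusted p = 0.0827) or clone 2 (0.0734) at D0, or without clone 1 (0.0598) or clone 2 (0.0802) at D6. For Dnmt1, Uhrf1 and Dnmt3b no knockout passed. Their differences from the WT day effect lay between −0.12 and 0.12 for Dnmt1, between −0.18 and 0.09 for Uhrf1 and between −0.44 and 0.72 for Dnmt3b. The −0.44 was that of TKO, which was −1.52 without clone 1 at D6 and 0.43 without clone 2 at either day. The 95% interval for Dnmt3b in Tet2-/- reached from −0.14 to 1.58. Without TKO clone 2 the Dnmt3b difference in Tet2-/- was 0.73 ± 0.21 with an edgeR adjusted p of 0.0203.

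Day effects were also compared between knockouts, a comparison added after the values were seen. Of 30 such differences 2 passed, Dnmt3l in Tet1-/- against TKO (−1.92 ± 0.48 log2, edgeR adjusted p = 0.0351) and Dnmt3a in Tet2-/- against TKO (1.69 ± 0.36, 0.0197), where 3.1% and 2.90% of all genes passed. In the other 4 contrasts between knockouts the share of all genes was 3.03% for Tet1-/- against Tet2-/-, 7.70% for Tet2-/- against DKO, 0.0320% for DKO against TKO and 0 for Tet1-/- against DKO. The 2 differences that passed were, without TKO clone 2, −2.21 (edgeR adjusted p = 0.0569) and 0.88 (0.0236), and the day effect on Dnmt3a in Tet2-/- then also passed against DKO (0.98, 0.000761), while that in Tet1-/- was −1.06 relative to Tet2-/- (0.000795).

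Tet2-/- was then set against each other knockout on the same day. Of 30 comparisons of a member 14 passed, all with a higher level in Tet2-/-. Among all genes at D0, 19.8% passed against Tet1-/-, 19.6% against DKO and 10.3% against TKO, with 10.5%, 10.1% and 5.13% higher in Tet2-/-. At D6 these shares were 10%, 15.2% and 14.9%, with 3.78%, 6.24% and 5.92% higher.

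Uhrf1 was higher in Tet2-/- than in each of the other 3 knockouts on both days. Its libraries in Tet2-/- (515 and 545 CPM at D0, 348 and 377 at D6) did not overlap those of Tet1-/- (383 to 427 and 234 to 292), DKO (324 to 374 and 217 to 236) or TKO (354 to 387 and 208 to 214). The differences at D0 were 0.37 ± 0.11, 0.59 ± 0.13 and 0.50 ± 0.13 log2 against Tet1-/-, DKO and TKO, with edgeR adjusted p of 0.0372, 0.0109 and 0.0295. At D6 they were 0.50 ± 0.11, 0.66 ± 0.12 and 0.75 ± 0.12, with 0.0213, 0.00797 and 0.00791. All 6 lost the call in some fit without 1 library, and over such fits the highest adjusted p lay between 0.0861 and 0.215. Tet2-/- clone 2 was among the libraries that decided each of the 6. Leaving out TKO clone 2 gave 0.43 (edgeR adjusted p = 0.0616) for Uhrf1 against TKO at D0.

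Dnmt3a was higher in Tet2-/- than in each of the other knockouts at D6, where its 323 and 350.2 CPM stood against 133 to 197 in their 7 libraries. The differences were 0.84 ± 0.10 log2 against Tet1-/-, 1.29 ± 0.12 against DKO and 1.01 ± 0.11 against TKO, with edgeR adjusted p of 0.00612, 0.00132 and 0.0044. Without clone 2 the first and the last lost the call (edgeR adjusted p = 0.136 and 0.0751). Dnmt1 passed against DKO at D0 and D6 (0.50 and 0.47 log2) and against TKO at D0 (0.60), and none of these 3 calls was kept in all fits without 1 library, with adjusted p up to 0.168. The Dnmt1 difference from TKO at D0 was 0.35 without TKO clone 2 (edgeR adjusted p = 0.0617) and 0.90 without TKO clone 1 (4.47e-05). Dnmt3l at D0 passed against TKO (1.20 ± 0.12 log2, edgeR adjusted p = 0.000265) and against DKO (0.36 ± 0.11, 0.0463), the latter lost without any 1 of its 4 libraries (0.0889 to 0.290). With TKO clone 2 left out of the fit, further differences of Tet2-/- at D0 passed, Dnmt1 (0.36, edgeR adjusted p = 0.00394), Dnmt3b (−0.39, 0.0244) and Dnmt3l (−0.28, 0.0286) against Tet1-/- and Dnmt3a (0.31, 0.0178) against DKO. In the same fit the calls over all genes went from 2858 to 5185 against Tet1-/- and from 2833 to 5423 against DKO.

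Levels can be compared between genes only per length, and because the length behind a line is not given, annotated lengths stand in for it here. Per kilobase of exon union, WT at D0 had 87.2 ± 11.9 CPM of Uhrf1, 85.0 ± 2.62 of Dnmt3l, 59.8 ± 6.08 of Dnmt1, 42.9 ± 8.19 of Dnmt3b and 12.9 ± 0.57 of Dnmt3a (SD, n = 3). Uhrf1 and Dnmt3l, neighbours in this order, did not differ beyond their spread. By the longest annotated transcript Dnmt3l was above Uhrf1 in WT, 139 ± 4.29 against 104 ± 14.1. At D6 the order was Dnmt3b with 132 ± 20.03, Uhrf1 with 56.1 ± 2.31, Dnmt1 with 48.4 ± 3.66, Dnmt3l with 18.7 ± 2.86 and Dnmt3a with 10.04 ± 0.858. Dnmt3a was lowest in 12 of 12 libraries at either day, and Dnmt3b was highest in 11 of 12 at D6, TKO clone 2 being the exception. Dnmt3a has a long exon union of 16642 bases, and with its longest annotated transcript of 9685 bases its level in WT at D0 was 22.2 CPM per kilobase, below that of the other members. By that length Dnmt3a was above Dnmt1 in 1 library, TKO clone 2 at D0.

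**Figure D4:**
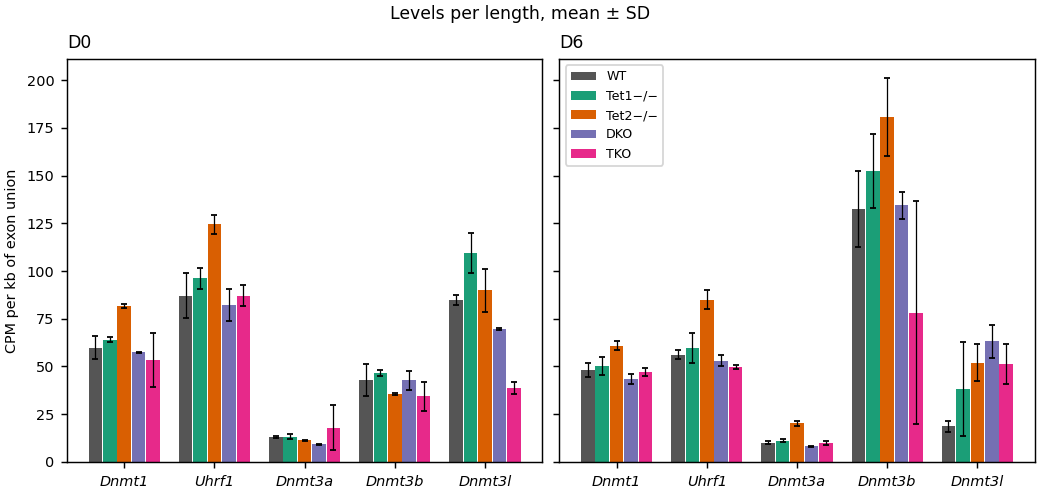
CPM per kilobase of exon union of the 5 members at D0 and D6 (linear axis from 0), by genotype, with columns for the mean of the libraries and bars for the SD. Dnmt3a has the lowest mean in each genotype at both days, and Dnmt3b in WT goes from 42.9 to 132.

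Several lines of the tables carry the same symbol, 26 for the 5 members. Apart from Dnmt3l, the other lines of a member held between 91.8% and 106% of the counts of its first line. For Dnmt3l a group of lines held about 44% of the first, with a median of 43.7% at D0 and 45.0% at D6 for the third line. For Dnmt3b the eighth line held a median of 92.4% of the second at D0 and 90.3% at D6.

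Partners and regulators of the machinery were described from a list of 25 genes, all tested. In WT 15 fell and 4 rose from D0 to D6, where 32.8% of all genes fell and 33.5% rose, with a list median of −0.33 log2 against 0.01 over all genes. Hells, a chromatin remodeller needed for normal methylation, measured −1.35 ± 0.17 log2 (SE), Pcna, the replication clamp that binds Dnmt1, −1.22 ± 0.12 and Usp7, a deubiquitinase that binds Dnmt1 and Uhrf1, −0.74 ± 0.11, with edgeR adjusted p from 1.13e-07 to 1.15e-05. Cdca7, which recruits Hells, measured −0.33 (edgeR adjusted p = 0.0027). Uhrf2, the paralogue of Uhrf1, moved in the opposite direction, 1.16 ± 0.16 (edgeR adjusted p = 4.55e-06).

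Among factors that protect or direct methylation, Zfp57 and Trim28, which hold methylation at imprinted regions, measured −2.75 ± 0.14 and −1.16 ± 0.12 log2 in WT with edgeR adjusted p of 3.08e-11 and 1.04e-07. Prdm14, a repressor of Dnmt3b in naive cells, measured −1.94 ± 0.29 (edgeR adjusted p = 1.10e-05), and Dppa3, which displaces Uhrf1 from chromatin, 1.39 without passing (0.127). Tet1-/- had 14 of the 25 lower and 7 higher (31.3% and 32.0% of all genes), Tet2-/- 7 and 4 (19.6% and 20.4%), DKO 13 and 3 (28.0% and 27.6%) and TKO 8 and 5 (25.2% each way). Of 8 readers of methylated CG, 3 rose in WT, a share near that of all genes (33.5%), and 1 fell, Zbtb4 by 3.24 ± 0.34 (edgeR adjusted p = 2.07e-07) and Mbd3 by −0.61 ± 0.13 (0.000437). Of 10 genes of methyl donor supply, 8 fell and 1 rose, where 32.8% of all genes fell and 33.5% rose. Mat2a, which makes S-adenosylmethionine, measured −1.67 ± 0.26 (edgeR adjusted p = 2.16e-05).

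Against WT at D6, 9 of the 25 partners were higher and 3 lower in Tet2-/-, with a list median of 0.24 log2 against −0.03 over all genes, where 28.5% of all genes passed in either direction. Hells was 1.03 ± 0.22 log2 higher (edgeR adjusted p = 0.0101), Pcna 0.77 ± 0.16 (0.00905), Nsd1, a histone H3 lysine methyltransferase whose mark guides Dnmt3a, 0.45 ± 0.09 (0.00867) and Kdm1b, a histone demethylase, 0.67 ± 0.15 (0.0125). Uhrf2 (−0.75 ± 0.17, edgeR adjusted p = 0.0125) and Dppa3 (−2.83 ± 0.91, 0.0404) were lower. Zfp57, Trim28, Usp7 and Cdca7 were higher by 0.63, 0.59, 0.44 and 0.33 log2 with edgeR adjusted p between 0.0133 and 0.0448, and Prdm14 gave 0.86 without passing (0.138). Mbd3 was 0.56 higher (0.0335) and Zbtb4 −1.56 (0.0147), the 2 of 8 readers that passed. Of the donor genes, 4 of 10 were higher and 1 lower, with Shmt2 at 0.74 ± 0.11 (0.0041) and Mat2a at 1.36 ± 0.23 (0.00534).

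The S phase genes higher in Tet2-/- at D6 included Mcm5 (0.89 ± 0.17 log2, edgeR adjusted p = 0.00733), Gins2 (0.69 ± 0.14, 0.00776), a part of the replicative helicase complex, and Ccne1 (1.05 ± 0.24, 0.0129), the cyclin of the G1 to S transition. The list median was 0.35 against −0.03 over all genes. At D0 the 1 partner that passed against WT with edgeR was Uhrf2 in TKO, at 0.58 ± 0.16 log2 (edgeR adjusted p = 0.0462). Without TKO clone 2 in the fit, 2 partners were higher and 2 lower in Tet2-/-, and 5 of 22 S phase genes were higher there, where 4088 of 14740 genes passed in either direction.

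Germline genes, whose promoters are kept silent by methylation, were taken as a list of 16, of which 15 were tested. In WT 11 fell and 2 rose from D0 to D6, where 32.8% of all genes fell and 33.5% rose. The list median was −1.58 log2 against 0.01 over all genes. Rpl10l measured −5.21 ± 0.47 log2 (edgeR adjusted p = 2.91e-08), Mov10l1, a helicase of the piRNA pathway, −2.75 ± 0.34 (1.23e-06) and Dazl, an RNA-binding protein of germ cells, −2.16 ± 0.45 (0.000374). At D0, where 9.80% of all genes passed in either direction in Tet2-/- and 8.61% in TKO, 7 were lower in Tet2-/- than in WT, among them Dazl at −2.34 ± 0.33 (0.00465) and Mael at −2.51 ± 0.41 (0.0082), and 2 in TKO, Rpl10l at −2.06 ± 0.27 (0.00235) and Dazl at −1.42 ± 0.31 (0.0184). Without TKO clone 2 in the fit, 10 of 15 were lower in Tet2-/- and 10 of 15 in TKO, while the genes called in either direction went from 1417 to 4088 and from 1245 to 2605.

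The fall of the germline genes over 6 days was not seen in TKO. There 0 of 15 fell and 4 rose with edgeR, the latter a share near the 25.2% of all genes that rose, and the day effect was above that of WT for 8 of 15, where 5.97% of all genes differed in either direction, with a list median of 2.23 log2 against −0.02 over all genes. Rpl10l had a difference of 4.1 ± 0.66 log2 (edgeR adjusted p = 0.00373), Dazl 3.35 ± 0.70 (0.0125), Stk31 2.74 ± 0.63 (0.0179) and Mael 2.69 ± 0.67 (0.0261). The list summed to 101 to 178 CPM at D0 and 171 to 209 at D6 in TKO. WT had 235 to 343 and 47.5 to 100.3 CPM, and Tet1-/- 344 to 377 and 55.2 to 120.2. DKO had 330 to 347 CPM at D0 and, near TKO, 173 to 180 at D6. In Tet2-/- 4 of 15 day effects were above WT, where 16% of all genes differed in either direction. Without TKO clone 2 these counts were 9 of 15 in TKO and 5 of 15 in Tet2-/-, while the genes called in either direction went from 933 to 1661 and from 2499 to 3829.

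The genes whose log2(CPM + 1) was most like that of a member over the 24 libraries were named by Pearson r, as a description. Uhrf1 was most like Timeless, a gene of the replication fork (0.967), Sap25 (0.964) and Pccb (0.963), and Dnmt1 most like Shf (0.938), Gm867 (0.927) and Kdm5c (0.925). Dnmt3b was most like Pim2, a kinase (0.968), Magel2 (0.960) and Klhl4 (0.956), Dnmt3l most like Wdr64 (0.910), Abcb1a (0.908) and Slc28a1 (0.905), and Dnmt3a most like 1110008L16Rik (0.775), Nova1 (0.746) and Bpgm (0.731). These values include the difference between the days. Taking it off left r at 0.909 for Uhrf1 with Timeless, 0.898 for Dnmt3b with Pim2 and 0.818 for Dnmt3a with 1110008L16Rik. For Dnmt3l 0 of the 3 names were the same with a pseudocount of 10.

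With each day's mean taken off, Uhrf1 was most like Dock6 (0.919), Tgfbi (0.915) and Timeless (0.909), and Dnmt1 most like Tgif2 (0.904), Shf (0.900) and Phrf1 (0.893). Dnmt3b was most like Pim2 (0.898), Arhgap35 (0.876) and Ybey (0.847), Dnmt3l most like Prex2 (0.904), Abcb1a (0.888) and Wdr64 (0.881), and Dnmt3a most like Tcf7l1, a repressor of the Wnt pathway in mESC (0.851), 1110008L16Rik (0.818) and Gpr85 (0.816). Pim2, like Dnmt3b, was lower in TKO clone 2 at D6, with 41.4 CPM against 193 in clone 1. Unlike Dnmt3b it rose in clone 2, as the TKO libraries had at most 15.1 CPM of Pim2 at D0. Prex2, like Dnmt3l, had its lowest mean at D6 in WT, with 4.99 CPM against 12.3 to 21.3 in the knockouts, whose order differed between the 2 genes.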

How the data were processed

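Poly(A) RNA with ERCC spike-ins was made into libraries with the NEBNext Ultra kit and sequenced paired-end on a NextSeq. Per the labels and the study's methods, the authors aligned reads with STAR 2.5.1 to mm9 and deposited raw counts on lines named by gene symbol, 1 table for each day with 31928 lines. The counting program is named differently in different places, its strand setting is not given in the sources used here, and no ERCC line is present. The first line of each of 22926 symbols was used, because 4911 symbols have more than 1 line.

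From these counts, genes were filtered with filterByExpr (minimum count 10), scaled by TMM and tested with edgeR 4.0.16 (quasi-likelihood, R 4.3.3), with p-values adjusted over all genes by Benjamini-Hochberg and called at 0.05. Fits covered the 12 libraries of D0 (14456 genes), those of D6 (15435) and all 24 (15639), each with all 5 genotypes and no block. Standard errors are the log2 change divided by the square root of F. Alternatives were DESeq2 1.42.0, other scalings, no filter, other lines, 2 blocks, smaller or joint fits and leaving out each library. Leaving out TKO clone 2 or the Tet1-/- clones of 1 day, and contrasts between knockouts, were added after seeing the data. Tests were tried on simulated data. Per the labels the same clones were sampled at both days. Over 11 clone pairs deviations from group means correlated between 0.0813 and 0.193, so the clone block is given where it changed a call. In a group of 2 clones the deviations mirror each other, so both pairs of Tet2-/-, DKO and TKO give 1 value and are not independent. The p-values measure the spread between clones of 1 parental line. A floor of 3 counts was 0.0805 to 0.163 CPM and covers counting error only. Genes named are the members, the Tet genes, the 3 genes most like each member, up to 4 called genes of each list and fixed partners. Members and lists were chosen with earlier results of these data known. Positions are from GENCODE on mm9 and promoters from RefSeq on GRCm38.p6, analysed with Python 3.11.15.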

Additional observations from a re-analysis of the deposited data

Results flagged for a closer look

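The 4 results given here are differences between groups under the same contrast, D6 against D0, tested as interaction terms by edgeR over all genes. No group had enough libraries for a test of single outlying samples. The day effect on Dnmt3l was 2.59 log2 higher in TKO than in WT (edgeR adjusted p = 0.00671), with higher levels at D6 in 2 of 2 TKO clones (1.61-fold and 1.07-fold) and lower ones in 3 of 3 WT clones. The TKO change itself, 0.41 log2, did not pass (edgeR adjusted p = 0.372). The day effect on Dnmt3a was 1.19 log2 higher in Tet2-/- than in WT (0.0222), with a higher level at D6 in 2 of 2 Tet2-/- clones and a lower one in 3 of 3 WT clones. Between knockouts, the day effect on Dnmt3l was −1.92 log2 in Tet1-/- relative to TKO (edgeR adjusted p = 0.0351), and that on Dnmt3a was 1.69 log2 higher in Tet2-/- than in TKO (0.0197), the latter including TKO clone 2, whose Dnmt3a level at D0 was 439 CPM against 161 in clone 1. Without that clone at either day the last 2 differences were −2.21 (edgeR adjusted p = 0.0569) and 0.88 log2 (0.0236), and the Dnmt3l difference between TKO and WT was 2.89 (0.0119).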

How the results depend on the processing

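Precision rests on 2 or 3 clones a group. Of the 40 calls on members, 15 were kept in every fit without 1 library, 25 were lost in some and 6 in every one. Leaving out each library in turn gave 1 to 7 calls at D0 against WT, 0 to 6 at D6, 16 to 20 between days, 1 to 4 for day effects against WT and 8 to 19 for Tet2-/- against the other knockouts. Leaving out TKO clone 2 at either day was an alternative chosen after seeing the data. It gave more calls at D0 and more day effects that differed from WT, and calls over all genes also rose. Without TKO clone 1 at D0 both counts on members rose as well. The day effects that differed from WT numbered 4 with DESeq2, with the clone block and without the Tet1-/- clones of 1 day. In the last of these, likewise added later, the fall of Dnmt1 in Tet1-/- had an edgeR adjusted p of 0.0608. With the longest transcript as length, Dnmt3l was above Dnmt1 per kilobase in 8 D6 libraries, against 4 with the exon union. The order of Dnmt3l and Uhrf1 in WT at D0 also turned with that length. With a pseudocount of 10, the lists of most similar genes shared 8 of 15 names over all libraries (0 of 3 for Dnmt3l) and 9 of 15 with the day's mean taken off.

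Signs turned in these results, where an uncalled value counts as turned beyond 1 SE. Without TKO clone 2 at either day, TKO against WT at D0 was 0.086 for Dnmt1 and −0.42 for Dnmt3a, the TKO day effect relative to WT was −0.068 for Dnmt1, 0.32 for Dnmt3a and 0.43 for Dnmt3b, and Dnmt3a in Tet2-/- against TKO at D0 was 0.23. Over fits without 1 library, TKO against WT at D0 ran from −0.47 to 0.086 for Dnmt1 and from −0.42 to 1.02 for Dnmt3a. The TKO change between days ran from −0.44 to 0.12 for Dnmt1 and from −1.42 to 0.027 for Dnmt3a. The TKO day effect relative to WT ran from −0.13 to 0.42 for Dnmt1, from −1.06 to 0.40 for Dnmt3a and from −1.52 to 0.18 for Dnmt3b. Tet2-/- against TKO at D0 ran from −1.22 to 0.23 for Dnmt3a and from −0.17 to 0.27 for Dnmt3b. Dnmt3b in DKO at D0 ran from −0.14 to 0.14, Dnmt3l in Tet2-/- at D0 from −0.066 to 0.18, and Uhrf1 in Tet1-/- at D6 from −0.030 to 0.14, all against WT. The cause of these changes was not tested.

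Blocking by replicate number, which within a day pairs different genotypes by number only, gave 2 calls at D0, 4 at D6 and 13 for Tet2-/- against the other knockouts, where Uhrf1 against Tet1-/- at D0 was lost (edgeR adjusted p = 0.0658). Of the 24 libraries 12 correlated best with a library of their own number. Counts over all genes moved more. Across the alternatives other than leaving out 1 library, Tet1-/- against WT at D0 gave 2 to 557 genes, Tet2-/- 913 to 4088, DKO 5 to 870 and TKO 3 to 2605, the low TKO value coming from the 2 genotypes fitted alone and each of the 4 highest from the fit without TKO clone 2.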
